A study of Mus musculus with 28 samples.

Results

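Livers of mice carrying a SIRT6 transgene (SIRT6-tg) and of their wild-type (WT) littermates were profiled by RNA-seq, and the 10 genes described here encode the T-cell receptor complex, its coreceptors and the proteins that start its signal. They are *Cd3d*, *Cd3e*, *Cd3g*, *Cd247*, *Cd4*, *Cd8a*, *Cd8b1*, *Cd2*, *Lck* and *Zap70*. They were found by gene symbol among the 49585 Ensembl features of the count table, and all 10 had the same versioned identifier in the Gencode annotation used here. The mice were C57BL/6JOlaHsd animals of 5 to 7 months in 4 groups of 7 libraries, namely WT males, SIRT6-tg males, WT females and SIRT6-tg females. The SIRT6-tg mice overexpressed SIRT6, a nuclear NAD-dependent deacylase, throughout the body and came from a single transgenic line. All groups shared strain, tissue and a short fast before sacrifice. Each library was bulk RNA of liver, in which T cells are a minority beside hepatocytes.

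A T cell recognizes antigen through a receptor made of variable chains that have almost no intracellular part of their own. The CD3 chains, encoded by *Cd3d*, *Cd3e* and *Cd3g*, and the zeta chain, encoded by *Cd247*, accompany them and carry the motifs that are phosphorylated when the receptor binds. CD4 and CD8 are coreceptors that bind class II and class I major histocompatibility molecules, respectively, and bring the kinase LCK to the receptor. LCK phosphorylates the CD3 and zeta chains, ZAP-70 docks on them and phosphorylates adaptor proteins, and CD2 is an adhesion molecule of T cells and natural killer (NK) cells. CD8 is found on cytotoxic T cells, mostly as a pair of an alpha chain (*Cd8a*) and a beta chain (*Cd8b1*), and CD4 marks helper and regulatory T cells. *Cd8a* is also transcribed in some dendritic cells, and *Cd4* in some dendritic cells and macrophages.

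The libraries held 18758863 to 35393069 counted reads, with a median of 26012203, and the low read numbers of several members limit the precision of their values. Among the 4 groups the trimmed mean of M-values (TMM) factors ranged from 1.06 to 1.17 in WT males, from 0.821 to 0.993 in SIRT6-tg males and from 0.906 to 1.06 in the females. *Sirt6* itself had a median of 73.3 normalized reads in WT males, 7189 in SIRT6-tg males, 67.1 in WT females and 785 in SIRT6-tg females. The transgene was thus read 102-fold above WT in males and 10.5-fold above WT in females. The sex of the mice and the level of the transgene cannot be told apart where the genotype effects of the sexes are compared. A normalized read count here is the number of reads divided by the library size and its TMM factor and multiplied by the mean effective library size.

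The members lie on chromosomes 1, 3, 4, 6 and 9 of GRCm38, the build named in the study's methods as mm10, with positions from a later Gencode release than the one the study counted on. *Cd3g* (chr9:44969572-44980431, minus strand), *Cd3d* (chr9:44981786-44987339, plus strand) and *Cd3e* (chr9:44998740-45009627, minus strand) stand side by side, and 1355 bases separate the start sites of *Cd3g* and *Cd3d*, which are transcribed away from each other. *Cd8b1* (chr6:71322788-71337494, plus strand) ends 35933 bases before *Cd8a* (chr6:71373427-71379173, plus strand), and *Cd4* (chr6:124864692-124888221, minus strand) is farther along the same chromosome. *Cd247* (chr1:165788681-165877277, plus strand) and *Zap70* (chr1:36761798-36782818, plus strand) are on chromosome 1, *Cd2* (chr3:101275899-101287939, minus strand) on chromosome 3 and *Lck* (chr4:129548344-129573641, minus strand) on chromosome 4. *Cd247* shares 3007 exonic bases with *Pou2f1* on the opposite strand and 206 with *Gm16565* on the same strand, and the strand setting of the counting was not stated in the sources used here, so reads from this stretch cannot be told apart. *Cd3e* shares 135 exonic bases with *Gm48719* and *Lck* shares 25 with *Mir8119*, and no other member shares exonic bases with another gene.

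RefSeq promoter windows on GRCm38.p6 were matched for 7 of the 10 genes, with 10 windows in all since *Lck* has 2 and *Zap70* has 3, and no entry was matched for *Cd4*, *Cd8b1* and *Cd2*. The 250 bases before the start site are printed for the CD3 chain genes and *Cd8a*, which moved together in the livers described next, and for the first start site of *Zap70*, which did not move with them. All run 5′ to 3′ on the strand of the gene, and capitals mark 6-letter motifs found on either strand: the ETS core AGGAAG (or CTTCCT), the E-box CACCTG (or CAGGTG), the RUNX core TGTGGT (or ACCACA) and the TATA box TATAAA (or TTTATA). The windows are *Cd3g* at chr9:44980432-44980681 (minus strand), *Cd3d* at chr9:44981536-44981785 (plus strand), *Cd3e* at chr9:45009612-45009861 (minus strand), *Cd8a* at chr6:71373177-71373426 (plus strand) and *Zap70* at chr1:36761548-36761797 (plus strand).
Cd3g: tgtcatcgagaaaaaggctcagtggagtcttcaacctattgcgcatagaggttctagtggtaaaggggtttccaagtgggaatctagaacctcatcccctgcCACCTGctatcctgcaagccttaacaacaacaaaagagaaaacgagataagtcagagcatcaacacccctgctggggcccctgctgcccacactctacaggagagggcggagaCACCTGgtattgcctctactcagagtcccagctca
Cd3d: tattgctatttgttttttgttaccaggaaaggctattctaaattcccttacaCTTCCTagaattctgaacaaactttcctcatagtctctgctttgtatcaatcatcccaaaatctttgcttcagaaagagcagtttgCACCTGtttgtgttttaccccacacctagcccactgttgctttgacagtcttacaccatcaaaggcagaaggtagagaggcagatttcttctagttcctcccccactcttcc
Cd3e: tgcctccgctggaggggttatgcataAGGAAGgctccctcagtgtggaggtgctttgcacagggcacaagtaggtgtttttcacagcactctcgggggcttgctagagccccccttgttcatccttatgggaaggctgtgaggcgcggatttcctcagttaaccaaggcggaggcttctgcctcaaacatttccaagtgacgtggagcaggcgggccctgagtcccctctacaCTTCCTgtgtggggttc
Cd8a: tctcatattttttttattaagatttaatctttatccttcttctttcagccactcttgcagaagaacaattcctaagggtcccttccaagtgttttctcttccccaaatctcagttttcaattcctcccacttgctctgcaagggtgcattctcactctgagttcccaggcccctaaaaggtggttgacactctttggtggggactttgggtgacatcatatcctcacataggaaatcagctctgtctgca
Zap70: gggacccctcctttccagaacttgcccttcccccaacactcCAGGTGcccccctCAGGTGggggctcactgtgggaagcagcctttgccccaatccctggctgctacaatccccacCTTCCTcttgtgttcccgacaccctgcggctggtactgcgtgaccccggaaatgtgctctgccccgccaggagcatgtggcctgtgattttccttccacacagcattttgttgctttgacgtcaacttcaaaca

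The ETS core was found in 7 of the 10 member windows and in 29.5% of the 32851 windows of the same length in the table. The E-box was found in 6 of them and in 17.2% of all windows, and the RUNX core in 2, both outside the printed stretches, and in 14.0% of all windows. None of the 10 windows held the TATA box letters, against 12.4% of all windows that did. The *Cd8a* window held none of the 4 motifs. These matches describe the letters of the windows and say nothing of binding.

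Levels between genes were compared per length and library size (RPKM), using the union of exons in the Gencode annotation. Within WT males the order by median RPKM was *Zap70* 4.69, *Cd8b1* 2.77, *Cd8a* 2.22, *Cd3d* 1.68, *Cd3g* 1.61, *Lck* 1.52, *Cd2* 1.47, *Cd3e* 0.882, *Cd4* 0.584 and *Cd247* 0.253, and each gene's range over the 7 libraries overlapped that of its neighbour in this order. *Zap70* was in all 4 groups the gene with the highest median, and in the 3 groups other than WT males its lowest library (2.15 RPKM in WT females) was above the highest library of every other member of that group. The coreceptors changed places between the groups: in SIRT6-tg males *Cd4* had a median of 0.270 RPKM against 0.166 for *Cd8b1* and 0.147 for *Cd8a*, while in the other 3 groups both CD8 genes stood above *Cd4*. *Cd247* was the lowest in every group. Its length of 5329 bases includes the 3007 shared with *Pou2f1*, so its RPKM is too low if reads there were not counted.

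In males, 9 of the 10 genes fell in SIRT6-tg livers and *Zap70* did not. The decline ran from 2.30-fold for *Cd4* to 12.7-fold for *Cd8a*, and the genes of CD8 fell most. Of the 21583 genes tested, 11.0% were lower in SIRT6-tg males at an adjusted p under 0.05 (edgeR quasi-likelihood test with Benjamini-Hochberg adjustment over all genes tested, the test for every adjusted p below unless another is named). The median log2 fold change of the members was -2.24, against 0.06 for all genes tested. For 7 of the members the ranges of the groups did not overlap at all, and 4.37% of all genes tested showed non-overlapping ranges with the SIRT6-tg males lower. In bulk liver RNA, fewer T cells and less RNA of these genes per T cell cannot be told apart.

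**Figure D1:**
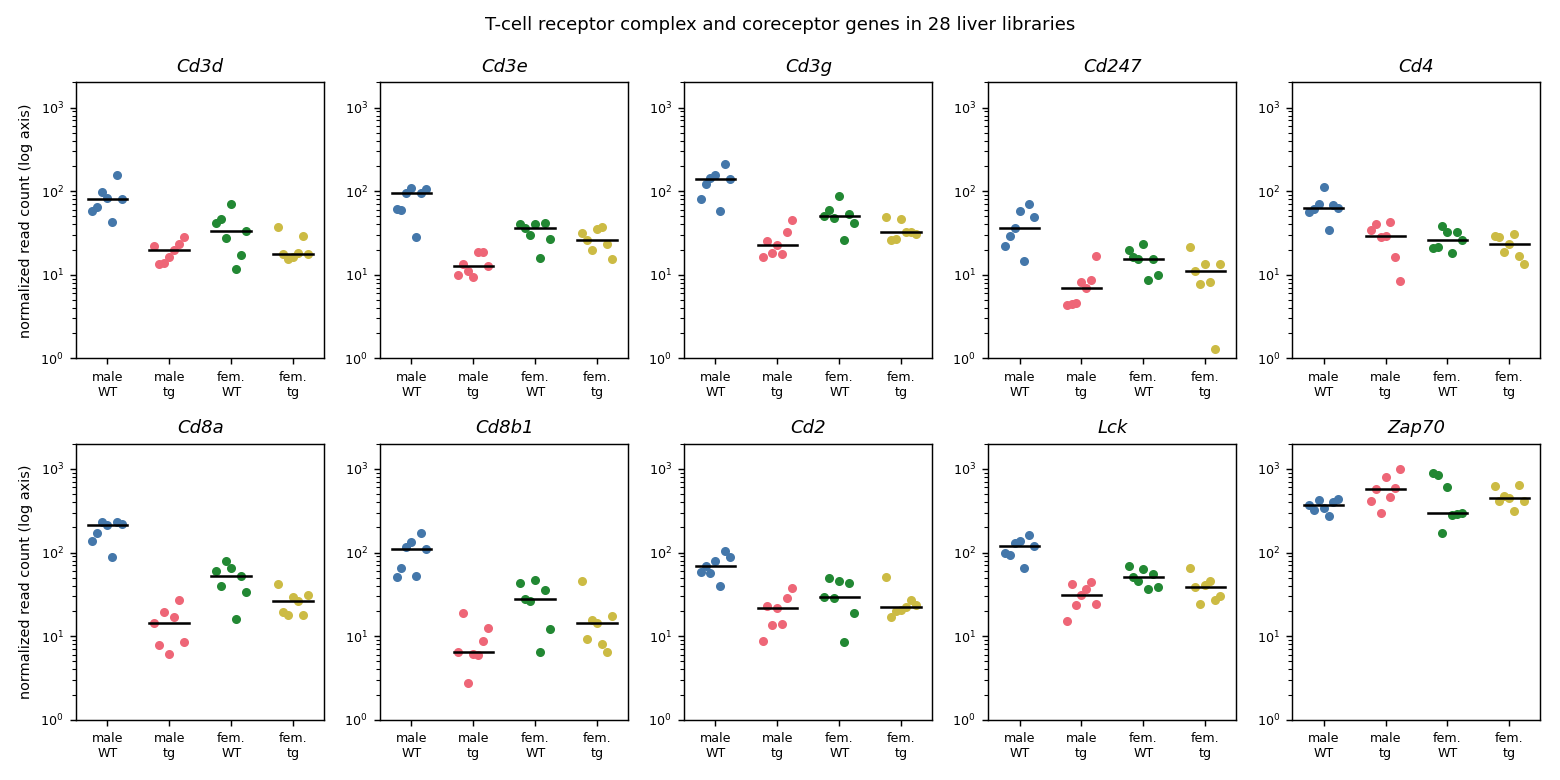
Normalized read counts (log axis) of the 10 genes in each of the 28 libraries, by group (WT and SIRT6-tg, written tg, of each sex); points are libraries and black bars are group medians. *Cd8a* ran from 88.0 to 231 reads in WT males and from 6.19 to 27.4 in SIRT6-tg males, whereas *Zap70* ran from 272 to 432 and from 297 to 992.

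Among the CD3 chains, which hold the receptor together at the surface, *Cd3e* had 28, 95.6 and 108 normalized reads as its lowest, median and highest value in WT males, and 9.28, 12.7 and 18.9 in SIRT6-tg males. *Cd3g* had 57.3, 140 and 214 in WT males and 16.4, 22.7 and 45.1 in SIRT6-tg males. The corresponding values of *Cd3d* were 42.7, 80.9 and 154 and 13.3, 19.9 and 28.2. For all of these genes every WT male was above every SIRT6-tg male. *Cd3e* fell by 2.56 on the log2 scale (SE 0.27, adjusted p = 5.92e-08), *Cd3g* fell by 2.38 (SE 0.27, adjusted p = 1.48e-07) and *Cd3d* fell by 2.10 (SE 0.31, adjusted p = 7.16e-06). *Cd247*, the zeta chain whose tail carries the most phosphorylation motifs of the complex, had 14.7, 35.9 and 70.5 reads in WT males and 4.37, 6.97 and 16.9 in SIRT6-tg males. The groups overlapped in this gene, since SIRT6-tg male 7 lay above WT male 5. *Cd247* fell by 2.39 on the log2 scale (SE 0.37, adjusted p = 1.62e-05).

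The coreceptor genes showed the largest and the smallest decline of the 9. *Cd8a*, the alpha chain, had 88.0, 214 and 231 reads in WT males and 6.19, 14.2 and 27.4 in SIRT6-tg males. Every WT male was above every SIRT6-tg male. The log2 fold change was -3.67 (SE 0.31, adjusted p = 5.84e-09), the third lowest p-value of all genes tested. *Cd8b1*, the beta chain that fewer other cell types carry than the alpha chain, had 51.6, 109 and 174 reads in WT males and 2.75, 6.55 and 18.8 in SIRT6-tg males. The groups did not overlap, and the log2 fold change was -3.53 (SE 0.44, adjusted p = 7.31e-07). *Cd4* had 34.7, 62.5 and 111 reads in WT males and 8.45, 28.9 and 42.8 in SIRT6-tg males. Here the groups overlapped, with WT male 5 below some of the SIRT6-tg males, and the log2 fold change was -1.20 (SE 0.26, adjusted p = 9.06e-04).

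*Lck*, the kinase that the coreceptors carry, had 65.3, 118 and 162 reads in WT males and 15.3, 30.9 and 43.8 in SIRT6-tg males, with no overlap, and its log2 fold change was -1.89 (SE 0.23, adjusted p = 4.29e-07). *Cd2* had a median of 68.1 reads and a highest of 103 in WT males, whose lowest library had 30 raw reads, and 8.74, 21.7 and 38 reads in SIRT6-tg males, again with no overlap, and its log2 fold change was -1.76 (SE 0.31, adjusted p = 8.74e-05). *Zap70*, the kinase downstream of the CD3 chains, stood apart. It had 272, 373 and 432 reads in WT males and 297, 577 and 992 in SIRT6-tg males, and its log2 fold change of 0.68 (SE 0.29) did not pass the test (adjusted p = 0.10). SIRT6-tg males spread widely in this gene, with a coefficient of variation of 40.5% against 16.0% in WT males.

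WT male 5 had the lowest value of its group in 9 of the 10 genes and was also the shallowest library, and without it 9 members were still lower in males. The sum of the 9 members other than *Zap70* was 423 normalized reads in that mouse, against a median of 976 and a highest value of 1273 among WT males. This lowest WT male was still above the highest SIRT6-tg male, at 208, where the group ran from 131 with a median of 180. WT females ran from 148 to 474 with a median of 348, and SIRT6-tg females from 166 to 372 with a median of 194.

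In females, none of the 10 genes passed the test between SIRT6-tg and WT livers, and 0.0278% of all genes tested did so in either direction. All 10 fold changes were negative (that of *Zap70* turned positive, up to 0.19, with the replicate block and without WT female 1, 2 or 4 or SIRT6-tg female 2 or 5), with a median log2 fold change of -0.45 against 0.00 for all genes tested. By the unadjusted p under 0.05, 3 members were called, against 5.62% of all genes tested. The DESeq2 test called none of the members either. *Cd8a* had 16.1, 52.9 and 78.7 reads in WT females and 17.7, 26.3 and 42.1 in SIRT6-tg females, and the groups overlapped. Its log2 fold change was -0.92 (SE 0.30, adjusted p = 0.451), the lowest among the members in females, with a 95% confidence interval from -1.53 to -0.32. *Cd3d* (log2 fold change -0.71, interval from -1.35 to -0.08) and *Cd3g* (-0.59, interval from -1.13 to -0.05) were the other genes whose unadjusted p fell under 0.05.

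The remaining members in females had intervals that included 0. *Cd3e* had 16.1, 36.7 and 41.7 reads in WT females and 15.4, 26.3 and 37.4 in SIRT6-tg females, with a log2 fold change of -0.29 (interval from -0.82 to 0.23). *Cd8b1* had 6.43, 27.5 and 46.6 in WT females and 6.40, 14.5 and 45.7 in SIRT6-tg females (log2 fold change -0.77, interval from -1.63 to 0.08). *Cd4* had 18.2, 25.7 and 38.1 in WT females and 13.4, 23.2 and 30.3 in SIRT6-tg females (log2 fold change -0.25, interval from -0.81 to 0.31). In these genes the groups of females lay over each other. *Cd3d* ran from 11.8 to 69.8 in WT females and from 15.5 to 37.3 in SIRT6-tg females, and *Cd3g* from 25.7 to 87.6 and from 26.3 to 49.3. *Cd247* ran from 8.57 to 23.3 and from 1.28 to 21.6, *Cd2* from 8.57 to 49 and from 17 to 50.5, *Lck* from 36.4 to 69.5 and from 24.3 to 64.9, and *Zap70* from 171 to 901 and from 318 to 639. WT female 5 had the lowest value of its group in 9 of the 10 genes, and SIRT6-tg female 1 the highest in 7.

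**Figure D2:**
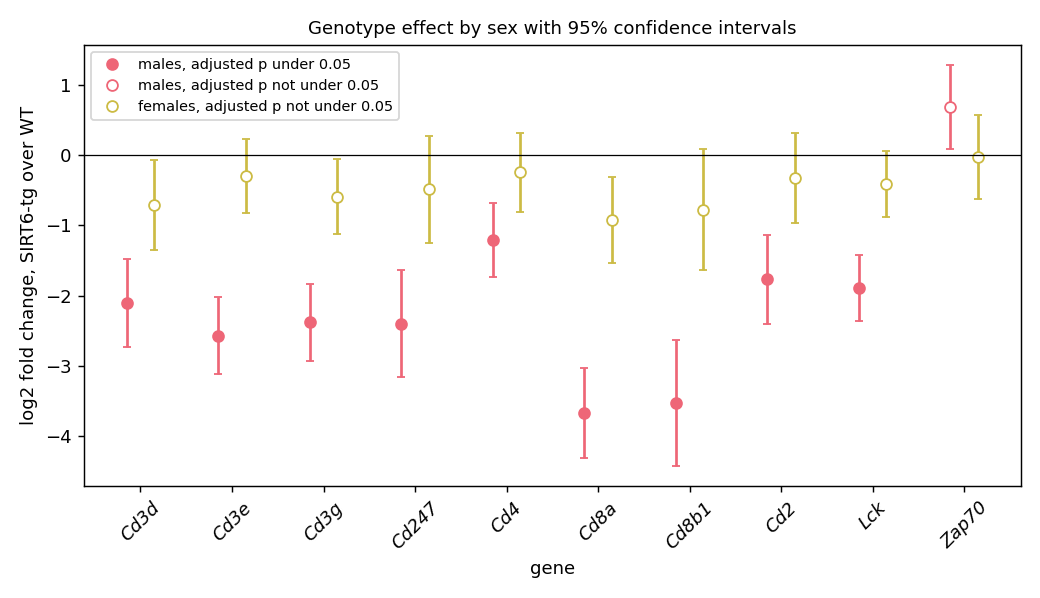
Log2 fold change of SIRT6-tg over WT for each of the 10 genes in males and females, with 95% confidence intervals; filled points passed an adjusted p of 0.05 and open points did not. The male estimates lie between -3.67 (*Cd8a*) and -1.20 (*Cd4*) except for *Zap70* at 0.68, and all female estimates lie between -0.92 and -0.03.

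Whether the fold change of SIRT6-tg over WT was unequal in males and females was tested directly, as the male minus the female log2 value. It was lower for 6 of the 10 members at an adjusted p under 0.05, against 3.84% of all genes tested. *Cd8a* (-2.74, SE 0.43, adjusted p = 2.87e-04), *Cd3e* (-2.27, SE 0.37, adjusted p = 4.57e-04) and *Cd8b1* (-2.75, SE 0.61, adjusted p = 0.00643) had the most negative differences. *Cd3g* differed by -1.79 (adjusted p = 0.00398), *Lck* by -1.48 (adjusted p = 0.00576) and *Cd247* by -1.91 (adjusted p = 0.0305). The call of *Cd247* was lost when any 1 of 8 libraries was left out (WT males 4, 6 and 7, SIRT6-tg males 1 and 3, and SIRT6-tg females 1, 4 and 7), with an adjusted p of up to 0.0605, while *Cd2* and *Cd3d* passed under library size scaling and DESeq2. *Cd3d* (-1.38, adjusted p = 0.0626), *Cd2* (-1.44, adjusted p = 0.0516), *Cd4* (-0.96, adjusted p = 0.148) and *Zap70* (0.71, adjusted p = 0.367) did not pass.

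The levels of the WT groups differed by sex. WT males were higher than WT females in 9 of the 10 genes, against 6.66% of all genes tested that were higher in WT males, and *Zap70* did not pass (log2 difference -0.40, adjusted p = 0.432). The 9 differences ran from 1.15 for *Cd2* to 1.90 for *Cd8a* on the log2 scale, where *Cd8a* had an adjusted p of 1.38e-05. For *Cd8a* and *Cd8b1* every WT male was above every WT female. SIRT6-tg males and SIRT6-tg females differed in *Cd3e* only (log2 difference -1.0, SE 0.28, adjusted p = 0.0100, lower in males), so that 1 of the 10 members was lower in SIRT6-tg males, against 10.2% of all genes tested. *Cd8a* differed by -0.85 (adjusted p = 0.0650), which made 2 members when upper-quartile scaling, DESeq2 or the replicate block was used or when SIRT6-tg male 6, WT female 5 or SIRT6-tg female 6 was left out, and *Cd4* by 0.33 (adjusted p = 0.403) between the transgenic sexes. These comparisons share groups with those of the genotypes and are not independent of them.

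The CD8 genes were then set against *Cd4* within each library, which does not depend on how libraries were scaled. The ratio of *Cd8a* to *Cd4* reads, with 0.5 added to each, had a lowest, median and highest log2 value of 0.95, 1.48 and 1.82 in WT males and of -2.32, -1.22 and 0.72 in SIRT6-tg males. The median ratio was thus 2.80 *Cd8a* reads per *Cd4* read in WT males and 0.429 in SIRT6-tg males, and the groups did not overlap. The mean log2 ratio was lower by 2.45 in SIRT6-tg males, a 5.46-fold difference (two-sided exact permutation test, p = 0.000583, the smallest p that 7 against 7 libraries allow; adjusted p = 0.00466 over 8 comparisons). No WT male, 5 of the 7 SIRT6-tg males, 1 WT female and 3 SIRT6-tg females had more *Cd4* than *Cd8a* reads. The SIRT6-tg males with at least as many *Cd8a* as *Cd4* reads were numbers 6 and 7, which also had the lowest *Cd4* of their group.

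**Figure D3:**
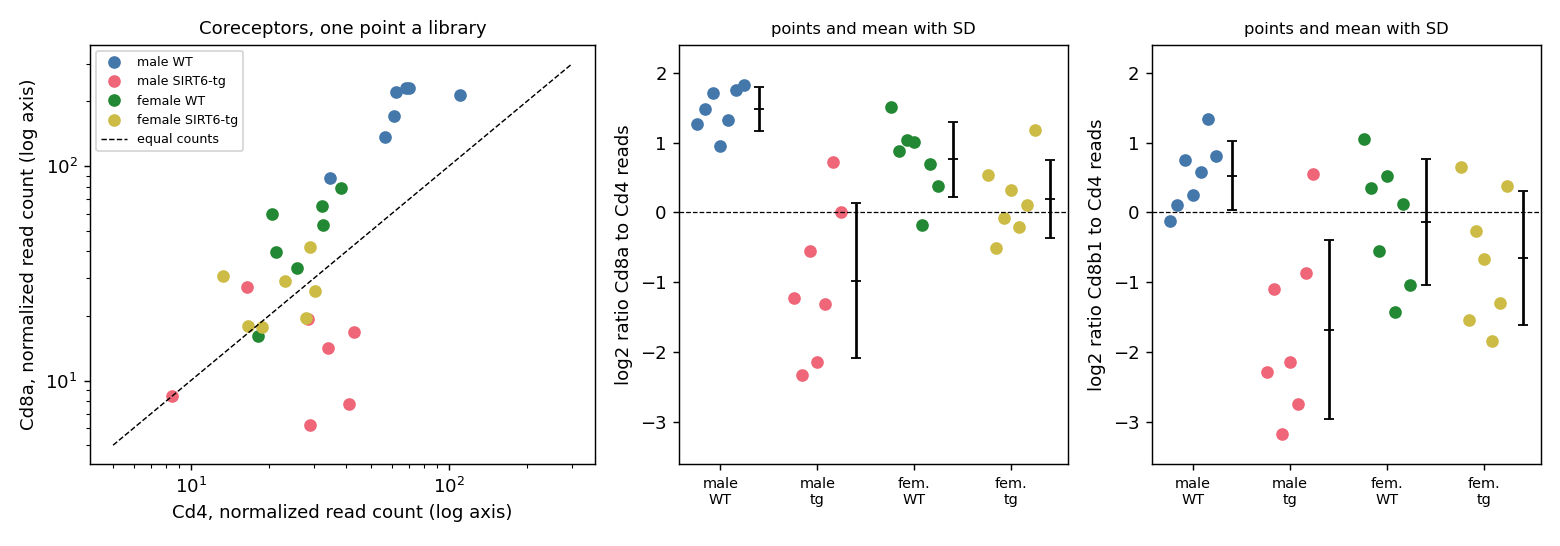
*Cd8a* against *Cd4* in normalized reads (both axes log, dashed line: equal counts), and the log2 ratio of *Cd8a* and of *Cd8b1* to *Cd4* reads in each library, with group mean and SD beside the points. The WT males lie above the line, at *Cd8a* to *Cd4* log2 ratios from 0.95 to 1.82, and 5 of the 7 SIRT6-tg males below it.

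In females the log2 ratio of *Cd8a* to *Cd4* was -0.18, 0.88 and 1.51 (lowest, median and highest) in WT and -0.51, 0.10 and 1.18 in SIRT6-tg mice. The mean differed by -0.57 (exact permutation p = 0.0763, adjusted p = 0.102), so no difference was shown, although it passed p under 0.05 before adjustment when WT female 5 or SIRT6-tg female 7 was left out (-0.73 and -0.74). The male difference minus the female one was -1.88 (exact permutation p = 0.0262, adjusted p = 0.0525). WT males had a higher ratio than WT females by 0.71 (exact permutation p = 0.00932, adjusted p = 0.0249). For *Cd8b1* to *Cd4* the male difference was -2.20 (exact permutation p = 0.00233, adjusted p = 0.00932), with SIRT6-tg male 7 overlapping the WT males. The female difference was -0.52 (exact permutation p = 0.308), the male difference minus the female one -1.68 (exact permutation p = 0.0706), and the WT difference 0.66 (exact permutation p = 0.115). Before adjustment, the male minus female value passed when SIRT6-tg male 7, WT female 1 or SIRT6-tg female 2 or 5 was left out (-2.05, -1.88, -1.83 and -1.88), and the WT difference when WT female 1 was left out (0.86).

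Both coreceptors were also set against the mean log2 level of *Cd3d*, *Cd3e* and *Cd3g*, which all T cells carry. *Cd8a* fell relative to the CD3 genes by 1.5 on the log2 scale in males (exact permutation p = 0.000583). *Cd4* had a difference of 0.95 in the other direction in males (exact permutation p = 0.0583). In females the differences were -0.35 for *Cd8a* (exact permutation p = 0.159) and 0.22 for *Cd4* (exact permutation p = 0.382).

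Mice of a group also varied together in most of these genes, though less so in *Cd4*. With the group means removed from log2 CPM, the reads of a gene scaled to library size, the 36 pairs among the 9 members other than *Zap70* had Pearson's r from -0.03 to 0.84, with a median of 0.55. The highest was that of *Cd3g* and *Cd2*, and the lowest that of *Cd4* and *Cd2*. *Cd3e* and *Cd8a* correlated with r = 0.67 (permutation within groups, p = 2.7e-04, adjusted over 5 relations 0.00135) and rho = 0.57 (permutation p = 0.00135, adjusted p = 0.00675) over 28 libraries, and r was 0.49 without the 2 libraries farthest from the median. *Cd3e* and *Cd4* had r = 0.47 (permutation p = 0.0117, adjusted p = 0.0195), rho = 0.43 (permutation p = 0.0267, adjusted p = 0.0668, which did not pass) and r = 0.31 without 2 libraries. *Cd8a* and *Cd8b1*, chains of one protein, had r = 0.51 (permutation p = 0.0105, adjusted p = 0.0195), rho = 0.40 (permutation p = 0.0469, adjusted p = 0.0781, which did not pass) and r = 0.32 without 2 libraries. *Cd8a* and *Cd4* had r = 0.35 (permutation p = 0.0963, adjusted p = 0.120), rho = 0.31 (permutation p = 0.129, adjusted p = 0.162) and r = 0.19 without 2 libraries, which passed no threshold.

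**Figure D4:**
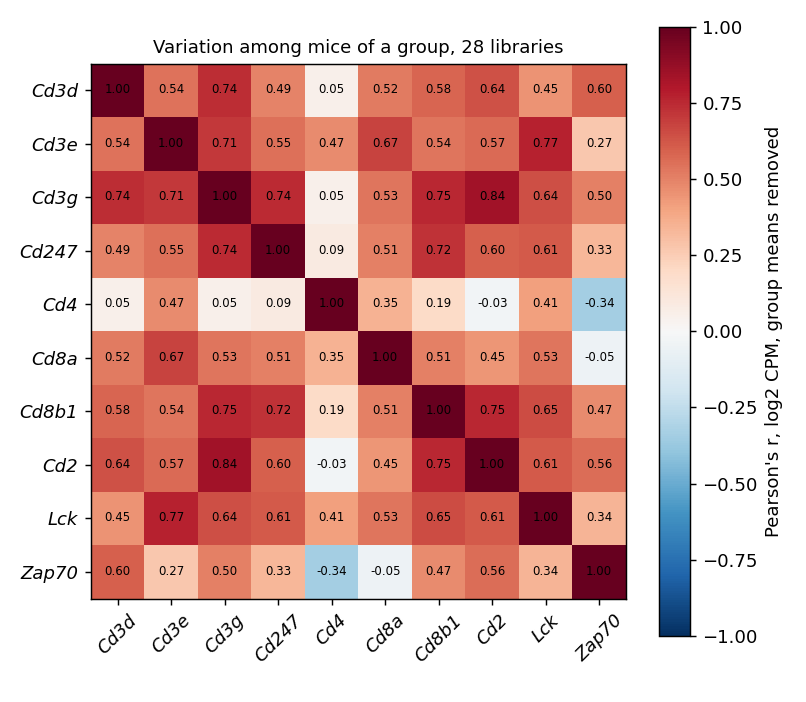
Pearson's r between each pair of the 10 genes over 28 libraries, on log2 CPM with the mean of each group removed; color runs from -1 to 1. *Cd4* and *Zap70* show the weakest rows, with r = -0.34 to each other, whereas *Cd3g* and *Cd2* had r = 0.84.

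*Cd4* and *Zap70* were the members least tied to the others in this respect. *Cd4* had r = 0.05 with *Cd3d* and with *Cd3g*, 0.09 with *Cd247* and -0.03 with *Cd2*, but 0.41 with *Lck*. The 9 pairs of *Zap70* ran from -0.34 with *Cd4* to 0.60 with *Cd3d*, with a median of 0.34. With *Cd3e*, *Zap70* had r = 0.27 (permutation p = 0.144, adjusted p = 0.144), rho = 0.21 (permutation p = 0.249, adjusted p = 0.249) and r = 0.16 without 2 libraries. Among 12800 genes averaging 20 or more normalized reads, those most like *Cd3e* were *Apobec3* (r = 0.83), *Runx3* (0.80), *Pdcd1* (0.78), *Ccl5* (0.78) and *Parp8* (0.75). Those most like *Cd8a* were *Pdcd1* (0.78), *Kcnab2* (0.75), *Runx3* (0.72), *Ccl5* (0.72) and *Apobr* (0.70), and most like *Cd4* were *Syde1* (0.71), *Osgin2* (0.70), *Dnajc27* (0.69), *Tigar* (0.66) and *Map4k1* (0.65). The genes most like *Zap70*, a list added after its values were seen, were *Prodh2* (0.90), *Cetn3* (0.90), *Acot13* (0.89), *Cd302* (0.89) and *Ttc36* (0.89). *Prodh2* encodes a mitochondrial enzyme of hydroxyproline breakdown in liver, and it averaged 6768 normalized reads here.

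The constant chains of the receptor itself were lower as well. Of the 8 constant chain genes, 7 were tested and *Tcrg-C3* was too low to test. All 7 were lower in SIRT6-tg males, against 11.0% of all genes tested, with a median log2 fold change of -1.96. *Trac*, the alpha constant chain, had a median of 124 reads in WT males, 20.2 in SIRT6-tg males, 52.5 in WT females and 27.7 in SIRT6-tg females, and its log2 fold change in males was -2.39 (SE 0.29, adjusted p = 5.04e-07). *Trbc1* (log2 fold change -2.18, adjusted p = 1.17e-04), a beta constant chain, shares near-identical sequence with *Trbc2*, so the split of reads between them is uncertain. The gamma chains *Tcrg-C4* (-1.77, adjusted p = 0.00862) and *Tcrg-C1* (-1.68, adjusted p = 0.0450) fell the least. Both had few reads: *Tcrg-C1* had medians of 4.42 in WT males, whose highest library had 43.0, and 3.28 in SIRT6-tg males. *Tcrg-C4* had medians of 8.96 and 2.19, and *Trdc* of 4.48 and 0.996. In each of these genes the male groups overlapped. Reads on variable segments were summed after the values of the members were seen: 79 of 144 segments had a count, and their sum ran from 46.9 to 165 normalized reads with a median of 89.5 in WT males and from 12.4 to 28.2 with a median of 19.9 in SIRT6-tg males. The mean log2 difference was -2.19 in males (exact permutation p = 0.000583) and -0.53 in females (exact permutation p = 0.0874).

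Of 37 genes of proximal receptor signalling, 28 were lower in SIRT6-tg males, against 11.0% of all genes tested, and none higher, with a median log2 fold change of -1.41. A lower genotype effect in males than in females was called in 16 of them, against 3.84% of all genes tested. *Ubash3a*, a suppressor of receptor signalling, had a log2 fold change of -2.57 (adjusted p = 9.67e-05), and *Sh2d2a*, an adaptor that binds LCK, of -2.56 (adjusted p = 3.18e-07). *Csk*, the kinase that restrains LCK (log2 fold change 0.08, adjusted p = 0.524), and *Plcg1*, a phospholipase used by many cell types (0.08, adjusted p = 0.770), did not pass the test in males. *Csk* had a median of 1969 reads and *Plcg1* of 1262 in WT males, far above the members. Some of the 28 genes called were also above the median of every member in WT males, such as *Ptprc* (1161 reads), *Ptpn6* (704) and *Fyb* (423). Whether the reads of this list came from T cells or from other cells was not tested. *Themis*, with medians of 57.4 reads in WT males and 73.2 in SIRT6-tg males, did not pass either (0.03, adjusted p = 0.968).

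The lists of CD8 and CD4 lineage genes were described by their counts. In SIRT6-tg males 11 of 14 CD8 lineage genes fell, against 11.0% of all genes tested, with a median log2 fold change of -2.11. *Gzmk*, a granule protease, had a log2 fold change of -5.12 (SE 0.57, adjusted p = 1.38e-07), with medians of 59.8 reads in WT males and 1.99 in SIRT6-tg males, and *Eomes*, a transcription factor of cytotoxic cells, of -3.99 (adjusted p = 2.13e-06). *Cd160* (-0.68, adjusted p = 0.0717) and *Itgae* (-0.71, adjusted p = 0.0654) did not pass. The summed level of this list ran from 19 to 87.1 CPM in WT males and from 4.48 to 10.03 in SIRT6-tg males. The highest medians of the list in WT males were 649 reads for *Ccl5* and 233 for *Nkg7*, so these genes weigh most in the sum. Whether the reads of this list came from CD8 T cells or from other cells was not tested. Of 12 CD4 lineage genes, 7 fell, against the same share of all genes tested, with a median log2 fold change of -0.77. The lowest were *Izumo1r*, a surface protein of regulatory T cells (-2.44, adjusted p = 6.90e-04), and *St8sia6* (-2.03, adjusted p = 0.00240). *Zbtb7b*, a transcription factor of CD4 lineage choice (0.25, adjusted p = 0.0802), did not pass and had a median of 1860.0 reads in WT males. Genotype effects differed between the sexes in 8 of the CD8 lineage genes and in 0 of the CD4 lineage genes, against 5.04% of all genes tested. The count of CD4 lineage genes was near that share, and the difference between the lists was not tested.

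**Figure D5:**
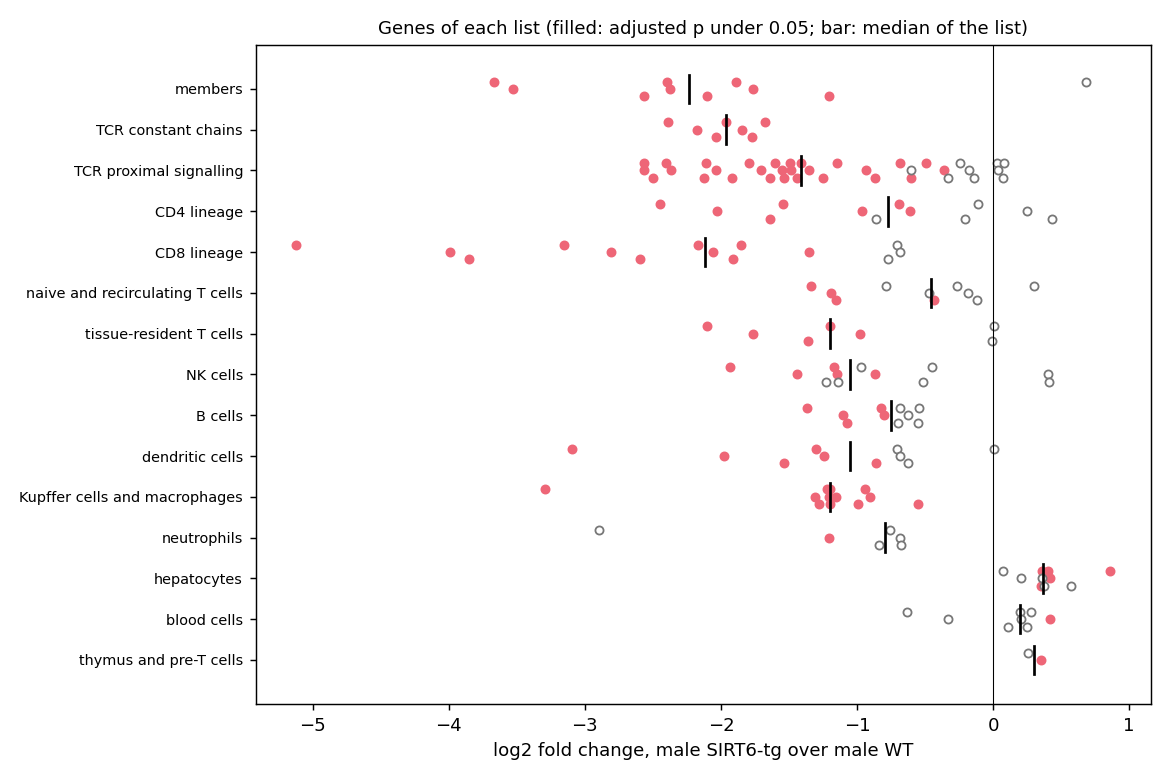
Log2 fold change of SIRT6-tg over WT males for each tested gene of the 10 members and 14 other lists; filled points passed an adjusted p of 0.05, open points did not, and black bars are list medians. The CD8 lineage median was -2.11 and the CD4 lineage median -0.77.

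Markers of several other cell types were also called in males, to be read against the 11.0% of all genes tested that were lower and the 9.68% that were higher in SIRT6-tg males, and their part in the results above was not tested. All 12 Kupffer cell and macrophage genes were lower in SIRT6-tg males (median log2 fold change -1.20), led by *Marco* (-3.29), a scavenger receptor, with a summed level of 559 to 1787 CPM in WT males and 460 to 781 CPM in SIRT6-tg males. Of 10 dendritic cell genes 6 were lower (median -1.05), led by *Itgax* (-3.09), summing to 20.1 to 36.3 CPM and 10.1 to 15.8 CPM. NK cell genes were lower in 5 of 12 (median -1.05) at 21.3 to 83.1 and 16.4 to 34.3 CPM, and B cell genes in 5 of 10 (median -0.75) at 35.7 to 93.9 and 16.8 to 97.5 CPM. Of the NK cell genes called, *Tyrobp* and *Fcgr3* had medians of 728 and 343 reads in WT males, against 24.3 or fewer for all others of the list. These genes thus make up most of the summed level of the list, and whether their reads came from NK cells was not tested. The other calls were *Itga2* (-1.94), *Klre1* (-1.44) and *Txk* (-0.87). *Ncr1* (-0.45, adjusted p = 0.609) and *Klrb1c* (-0.52, adjusted p = 0.290) did not pass, and *Klra7* (0.41) and *Klra9* (0.40) had positive estimates. Lists of tissue-resident T cells and of naive and recirculating T cells were lower in 5 of 7 and 4 of 10, respectively, with *Rgs1* (-2.10) and *Ccr7* (-1.34) lowest. Neutrophil genes were lower in 1 of 6, and *Ly6g* was not tested. Hepatocyte genes were higher in 5 of 10 (median 0.37) with TMM scaling but in 4, 1 and 1 with relative log expression, upper-quartile and library size scaling. Blood cell and pre-T cell genes were higher in 1 of 8, near that background, and 1 of 2, and in 0 of both lists with upper-quartile and library size scaling. The pre-T cell list gene called was *Cd1d1* (0.35, adjusted p = 0.0147), with a median of 4628 reads in WT males, while *Dntt* (0.25, adjusted p = 0.669) did not pass. *Dntt* had a median of 82.2 reads in WT males, and the call of *Cd1d1* at its far higher level is not read as one about pre-T cells. *Rag2*, a recombination gene of immature lymphocytes, was at 0 in every library. In females none of these lists had a gene that passed the test.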

How the data were processed

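Total RNA of liver from 28 mice was sequenced by the study and aligned by the authors with STAR 2.5.0a to mm10, and uniquely mapped reads were counted per gene with HTSeq. The deposited values are raw read counts per Ensembl feature, not normalized, and the counting's strand setting is not given in the sources used here. Of 49585 features, 32072 had a count, and 21583 with a mean of at least 0.5 after size factor scaling were tested with edgeR 4.0.16 in R 4.3.3. Normalization used TMM, a robust quasi-likelihood fit held all 28 libraries, 5 contrasts were taken, and p-values were adjusted by Benjamini-Hochberg. Ratios of 2 groups were tested by exact permutation over 3432 splits, and the male minus female value over every pair of splits with genotype permuted within each sex. Depth ran from 18758863 to 35393069 reads and intervals cover counting and sample error within these mice. Same-numbered WT and SIRT6-tg libraries of a sex correlated with r from -0.283 to 0.271 after group means were removed. The numbers were not used as pairs in the main fit, and pairing of the mice by litter or cage is not known. No 2 libraries of a group agreed within sampling noise. Alternatives were other scalings (relative log expression, upper quartile, library size alone), filters, DESeq2 1.42.0, each sex fitted separately, a replicate block, other pseudocounts and leaving out each library. The scripts were tested on simulated data.

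The 10 members and the gene lists were chosen with earlier results of these data known. Genes were named from a rule: all members, the lowest and highest changes in males of each list (2 each), and the 5 genes most correlated with *Cd3e*, *Cd8a* and *Cd4*, and *Sirt6*. The summed variable segments, the genes like *Zap70* and the list values at other scalings were added after the data were seen. So were the values named for *Trdc*, *Themis*, *Ptprc*, *Ptpn6*, *Fyb*, *Nkg7*, *Tyrobp*, *Fcgr3*, *Txk*, *Ncr1* and *Klrb1c*, and the list value of *Ccl5*. Some genes that the rule selects are covered by the counts of their lists only, and 1 is not reported here.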

Additional observations from a re-analysis of the deposited data

Results flagged for a closer look

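Within groups of 7 libraries, 3 of 48 sets of values had a single mouse standing apart by the gap to its nearest neighbour, where chance alone would give about 1 in 20. *Cd247* was 16.9 normalized reads in SIRT6-tg male 7, and SIRT6-tg female 1 had 45.7 for *Cd8b1* and 50.5 for *Cd2*.

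The genotype effect differed between males and females by a test of the difference itself in 6 members. The log2 difference, male minus female, was -2.27 for *Cd3e*, -1.79 for *Cd3g*, -1.91 for *Cd247*, -2.74 for *Cd8a*, -2.75 for *Cd8b1* and -1.48 for *Lck*. The level of the transgene also differed between the sexes, so sex and dose cannot be told apart.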

How the results depend on the processing

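Under every other setting that gave the value, 9 members were lower in SIRT6-tg males, 9 were higher in WT males than in WT females, and 0 passed in females. Of the single members' calls, that of *Cd247* between the sexes was lost when any 1 of 8 libraries was left out, and no call changed direction. The count of members lower in SIRT6-tg males than in SIRT6-tg females was 2 rather than 1 under upper-quartile scaling, DESeq2 and the replicate block, where *Cd8a* joined *Cd3e*, and ranged from 1 to 2 when single libraries were left out. The members with a lower genotype effect in males than in females numbered 7 with relative log expression, upper-quartile scaling and the replicate block, 8 with library size alone and DESeq2, and 5 to 8 with single libraries left out. Scaling moved the median of all genes in males from 0.06 (TMM) to -0.22 (library size alone), and the share of higher calls from 46.8% to 35.7% (relative log expression), 26.2% (upper quartile) and 4.89% (library size alone). The *Cd8a* to *Cd4* correlation was 0.44 with library size alone. The *Cd8b1* ratio between WT sexes was 0.66 (p = 0.014 by exact permutation) with the CD3 genes in place of *Cd4*. With single libraries left out, the *Cd8a* to *Cd4* difference in females ranged from -0.74 to -0.45, the *Cd8b1* to *Cd4* difference of males minus that of females from -2.05 to -1.44, and the same ratio between WT sexes from 0.45 to 0.86, and each passed p under 0.05 in some of these. Over all genes 6 passed in females with edgeR, 42 with DESeq2 and 2 with each sex fitted separately, and 1088 differed between the sexes in genotype effect, against 1863 with library size alone. Under library size alone 9 B cell, 2 neutrophil and 1 blood cell genes were lower in males. The cause of these shifts was not tested. The block by replicate number left counts of 9, 0, 7, 9 and 2 members in the 5 comparisons. Genes of a few reads, such as *Cd247* and *Cd8b1* in SIRT6-tg males, are limited by depth.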
